A study of Saccharomyces cerevisiae with 28 samples.

Results

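The 7 genes HIS1 to HIS7 of Saccharomyces cerevisiae encode the enzymes that make the amino acid histidine. They were taken by gene symbol from the probe annotation, where each had 1 probe set, so that 7 of the 5498 S. cerevisiae probe sets with 1 gene symbol (5449 genes) are described here. Transcripts were measured on Affymetrix arrays in 2 baker's yeasts, LS and HS, that had fermented for 60 min in LF medium holding 0, 5, 10, 20, 30, 40 or 50% sucrose. Each of the 14 groups of yeast and sucrose had 2 arrays, 28 in all. The labels do not say what LS, HS or LF stand for, whether either yeast is 1 strain, or whether the 2 arrays of a group stem from different cultures. The p-values therefore reflect array-to-array spread, part or all of which may be technical. The deposited value is a ratio of a probe set to its own usual level, close to 1 in the middle of the arrays, so it compares arrays for a gene and says nothing of one gene's level against another's.

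Histidine is made in one linear pathway from phosphoribosyl pyrophosphate (PRPP), an activated sugar phosphate, and ATP. HIS1 encodes the ATP phosphoribosyltransferase of the first step, which histidine itself inhibits. HIS4 encodes a protein with several activities that carries out the steps after it and also the last oxidation to histidine. HIS6 (an isomerase) and HIS7 (imidazole glycerol phosphate synthase) follow, and the HIS7 reaction releases an intermediate of purine synthesis. HIS3 (a dehydratase), HIS5 (an aminotransferase) and HIS2 (histidinol phosphatase) complete the chain before the final oxidation. In S. cerevisiae the genes are known as targets of Gcn4, the activator of the general control of amino acid synthesis, and in part of Bas1 and Pho2, which also act on purine genes.

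The array also carries probe sets of the fission yeast S. pombe, with a median ratio of 0.119 to 0.994 on 22 arrays and of 1.51 to 13.7 on 6. All 6 are replicate 2 of an LS group, namely of every sucrose concentration except 40%. The correlation with the first replicate over S. cerevisiae probe sets, on the log2 scale, was -0.222 to 0.501 for them and 0.471 to 0.725 for the HS pairs. For the 7 histidine genes the replicates of LS differed by a median of 1.86 on the log2 scale at 5% and of 2.12 at 10%, against 0.137 at 40%, where neither LS array stood apart. In HS the median gap was 0.116 to 0.698, except at 40%, where it was 1.60. Every test below was run with all 28 arrays and again without the 6.

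In the median over the 7 histidine genes both yeasts were lowest at 50% sucrose, while single genes differed in their order, more so in LS. Over the 7 genes the median of the group ratios (geometric means of 2 arrays) in HS was 0.779 without sucrose, 1.39 at 5%, 1.11 at 10%, 1.27 at 20%, 1.20 at 30%, 1.02 at 40% and 0.369 at 50%. In LS it was 0.695 without sucrose, 1.28, 0.810 and 1.61 at 5, 10 and 20%, 0.791 at 30%, 0.389 at 40% and 0.375 at 50%. The HS median stayed above 1 from 5 to 40% and was low at 50%, while the LS median was low at 40% too. In HS 50% was the lowest of the 7 groups for 6 genes, and the second lowest for HIS6, which was lowest without sucrose. In LS 40% was the lowest group for 5 genes, while HIS1 was lowest without sucrose (0.333, from arrays at 1.635 and 0.0679) and HIS4 at 50%. HIS2 in LS read 0.624 at 50%, above 0.549 at 20% and 0.374 at 30%, and HIS5 was second highest without sucrose (0.895).

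**Figure D1:**
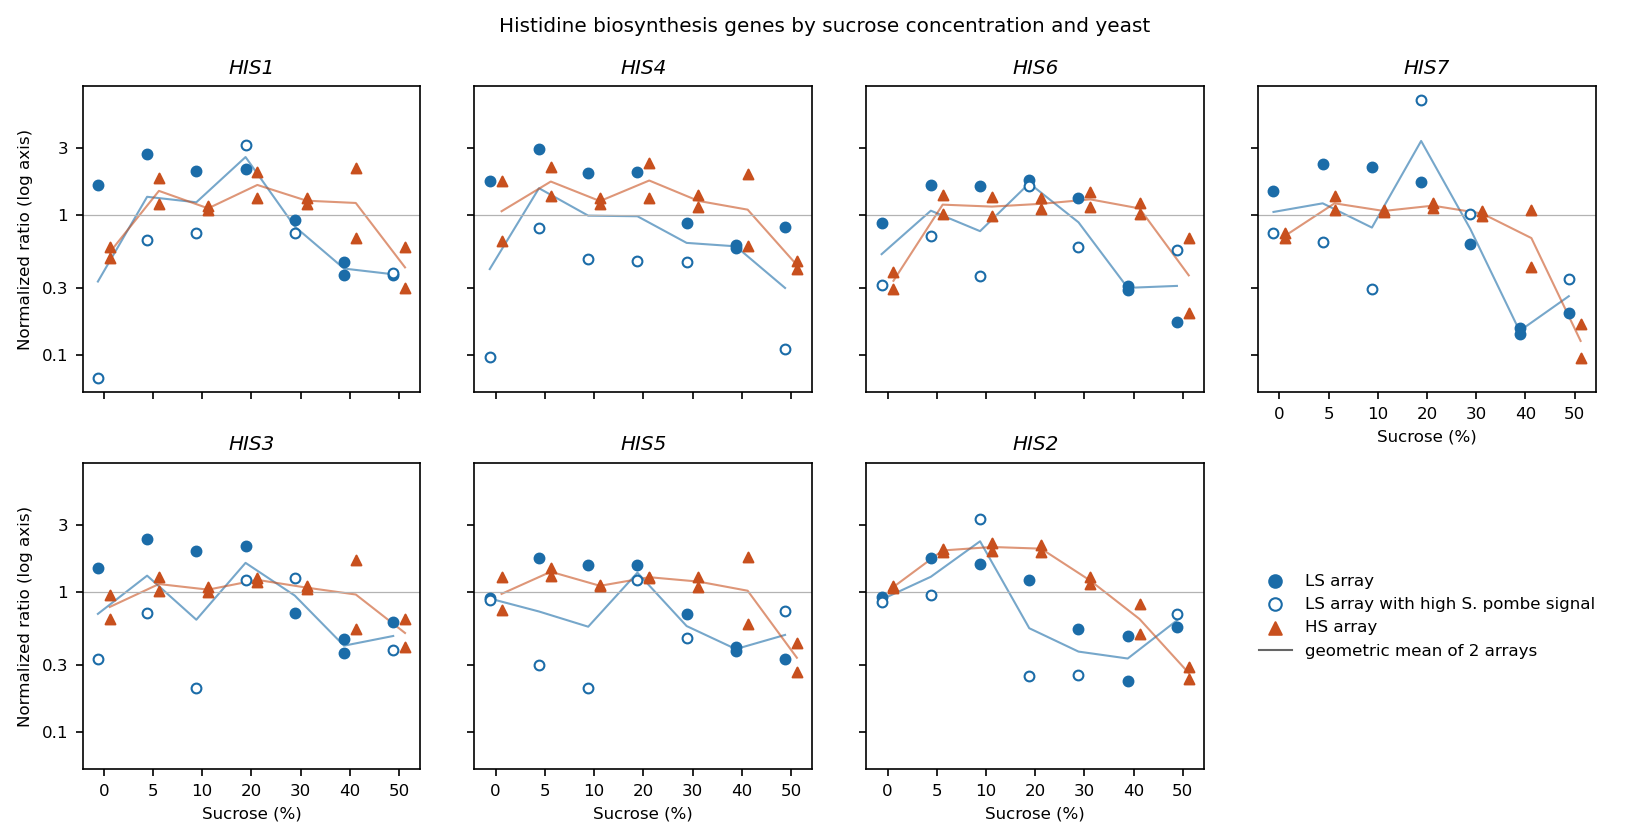
Normalized ratio (log axis) of each of the 7 histidine genes against sucrose (%), with 1 point per array, circles for LS and triangles for HS, open circles for the 6 LS arrays with a high S. pombe signal and lines through the geometric mean of 2 arrays. The HS triangles at 50% lie below all HS triangles at 5 to 20% in all 7 panels, and the filled LS circles at 40% lie below the filled circles at 5 to 20%.

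The first question was how the pathway responded in HS at the highest sugar, 50% sucrose against the 6 arrays at 5, 10 and 20%. HIS1 had ratios of 0.586 and 0.302 at 50%, against a lowest of 1.08, a median of 1.26 and a highest of 2.03 on the low sucrose arrays. HIS4 had 0.412 and 0.464, against 1.20, 1.34 and 2.33. Both arrays at 50% were below every low sucrose array for these early steps. HIS6 had 0.684 and 0.199, against 0.985, 1.20 and 1.38, the widest split between the 2 arrays at 50% in this pathway. HIS7, the branch to purine synthesis, had 0.165 and 0.0952, against 1.05, 1.10 and 1.35. Its 6 low sucrose arrays lay close together and its arrays at 50% far beneath them. HIS3 had 0.636 and 0.405, against 0.995, 1.13 and 1.28. HIS5 had 0.265 and 0.430, against 1.095, 1.27 and 1.48. HIS2 had 0.291 and 0.237, against 1.93, 1.99 and 2.22, again with no overlap.

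For all 7 genes the 2 arrays at 50% lay below the 6 arrays at low sucrose, as they did for 30.0% of all probe sets. In the limma fit of all arrays HIS7 fell 9.12-fold (log2 difference -3.19 ± 0.71 SE, adjusted p = 0.00476, n = 2 against 6) and HIS2 fell 7.74-fold (-2.95 ± 0.57, adjusted p = 0.0016). These were 2 of the 7, against 7.06% of all probe sets called lower. The other 5 had differences of -1.15 (HIS3) to -1.89 (HIS5) with adjusted p of 0.0802 to 0.342. The median of the 7 was -1.84, against -0.13 for all probe sets and -0.31 for the S. pombe probe sets. With the 6 LS arrays left out, which changes only the pooled variance in an HS comparison, all 7 were called lower, against 25.9% of all probe sets, with the same differences and SE of 0.31 to 0.47. Both calls were lost when the second HS array at 50% was left out (adjusted p = 0.142 for HIS7 and 0.0607 for HIS2).

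At 40% sucrose HIS2 was the gene farthest below its low sucrose level in HS, and for most other members the 2 arrays disagreed. HIS2 had ratios of 0.814 and 0.501 at 40%, and of 1.28 and 1.13 at 30%, all below the lowest low sucrose array of 1.93; such a lack of overlap held for 1 of 7 genes at either concentration, against 21.6% of all probe sets at 40% and 11.3% at 30%. Its log2 difference at 40% was -1.67 ± 0.57 with all arrays (adjusted p = 0.157, 3.18-fold) and was called without the 6 LS arrays (adjusted p = 0.00306, SE 0.31). None of the 7 was called at 40% with all arrays, against 1.55% of probe sets called lower, and without the 6 it was 1 of 7, against 12.1%. The other 6 genes had differences between -0.08 (HIS6) and -0.75 (HIS7), which are means of a high and a low array for most of them: HIS1 read 2.17 and 0.679, HIS3 1.70 and 0.538, and HIS5 1.77 and 0.584. The first of these arrays lay above the low sucrose range for these 3 genes and the second below it. At 30% the differences ran from -0.76 (HIS2) to 0.13 (HIS6), with none called in either fit, against 0.0182% of probe sets called lower with all arrays and 0.818% without the 6. The median of the 7 differences at 40% was -0.30 with both arrays, -1.10 without the first and 0.33 without the second, so its direction rests on 1 array. Whether HIS2 differed from the other 6 genes was not tested.

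Without sucrose HIS6 and HIS1 were the genes farthest below their low sucrose level in HS. HIS6 had ratios of 0.293 and 0.388 and HIS1 of 0.592 and 0.490, both below all 6 low sucrose arrays. HIS2 had 1.06 and 1.11, also without overlap. HIS4 and HIS5 overlapped with the low sucrose arrays through the first array (1.74 and 1.27). None of the 7 was called with all arrays, against 2.84% of probe sets called lower, with adjusted p of 0.112 for HIS6 and 0.428 for HIS1. In the fit without the 6 LS arrays HIS6 (log2 difference -1.80 ± 0.40, adjusted p = 0.00444, 3.48-fold), HIS1 (-1.37 ± 0.42, adjusted p = 0.0252) and HIS2 (-0.91 ± 0.31, adjusted p = 0.0403) were called lower, against 20.0% of all probe sets. The median was -0.69 for the 7 genes, -0.31 for all probe sets and -1.05 for S. pombe. The groups did not overlap for 5 of 7 genes, and for 31.9% of all probe sets, and no test compared these shares.

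In LS the same genes were low from 40% sucrose. HIS1 had ratios of 0.460 and 0.370 at 40%, against a lowest of 0.665, a median of 2.09 and a highest of 3.14 on the LS arrays at 5 to 20%. HIS4 had 0.580 and 0.610, against 0.468, 1.41 and 2.96, and overlapped with 2 of the second replicates at low sucrose. HIS6 had 0.289 and 0.312, against 0.366 at the lowest, and did not overlap. HIS7 had 0.155 and 0.141, the lowest values of HIS7 in LS, against 0.297, 1.96 and 6.62. Its 2 arrays at 40% agreed closely while its low sucrose arrays spread more than those of any other histidine gene. HIS3 had 0.463 and 0.366, against 0.204, 1.58 and 2.40. HIS5 had 0.377 and 0.402, against 0.204, 1.38 and 1.73. HIS2 had 0.483 and 0.230, against 0.248, 1.40 and 3.335. HIS3, HIS5 and HIS2 overlapped with low sucrose through second replicates alone.

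HIS7 fell 10.1-fold in LS at 40% (log2 difference -3.33 ± 0.71, adjusted p = 0.00292, n = 2 against 6) and HIS2 fell 3.52-fold (-1.81 ± 0.57, adjusted p = 0.0333). These were again 2 of 7, against 8.17% of all probe sets called lower. HIS6 had a difference of -1.89 ± 0.66 (adjusted p = 0.0517), HIS1 of -1.98 ± 0.84 (adjusted p = 0.112), and HIS3, HIS5 and HIS4 of -1.42, -1.08 and -0.94 (adjusted p = 0.206 to 0.539). The groups did not overlap for 3 of 7, HIS1, HIS6 and HIS7, and for 14.8% of all probe sets. Leaving out the 6 arrays, of which 3 are low sucrose arrays, all 7 were called lower, against 31.9% of all probe sets, by 3.86-fold (HIS4) to 13.9-fold (HIS7). The median of the 7 was -1.81 with all arrays and -2.39 without the 6, where all probe sets had -0.25 and -0.35. S. pombe probe sets moved by -2.42 and -0.91 in the same comparison, and the part of this signal in the result was not tested. The HIS7 call was lost without the second array at 40% (adjusted p = 0.0641), and the HIS2 call without either array at 40%, the first at 5% or 20%, or the second at 10% (adjusted p = 0.0506 to 0.436).

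At 50% sucrose the LS genes stayed low, with wider spread. HIS7 had ratios of 0.198 and 0.346 and fell 5.69-fold (log2 difference -2.51 ± 0.71, adjusted p = 0.0153), the 1 call of 7, against 11.1% of probe sets called lower, and lost without the first array at 50% (adjusted p = 0.133). HIS1 had 0.369 and 0.382, which lay below all 6 low sucrose arrays, with a difference of -2.11 ± 0.84 (adjusted p = 0.078). It was the 1 gene of 7 without overlap, against 10.9% of all probe sets. HIS6 had 0.172 and 0.559 (-1.84 ± 0.66, adjusted p = 0.0503), and HIS4 0.817 and 0.110, the farthest apart of the pathway in this group. Leaving out the 6 leaves 1 LS array at 50% and 3 at low sucrose, and the fit takes the lone array to vary like the others. Its log2 ratios had an interquartile range of 2.14, the widest of the 22 arrays kept and within the 2.09 to 2.62 of the 6. The differences were then -3.38 (HIS7) to -1.41 (HIS2), with a median of -2.28. Every result for LS at 50% without the 6 rests on this 1 array.

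The first LS replicates, none with an S. pombe median above 1, give an order of levels along the sucrose series. They are not free of that signal. The S. pombe median was 0.994 at 5% and 0.887 at 50%, against at most 0.4605 on the HS arrays. HIS7 read 1.49 without sucrose, 2.30, 2.21 and 1.715 at 5, 10 and 20%, 0.614 at 30%, 0.155 at 40% and 0.198 at 50%. HIS5 read 0.910, then 1.73, 1.55 and 1.55, then 0.694, 0.377 and 0.331. On these single arrays the level at 30% lay between those at low and at high sucrose for HIS7 and HIS5. For HIS6 it was 1.32 at 30%, close to the 1.59 to 1.765 at low sucrose, and 0.289 at 40%. At 30% none of the 7 was called in LS with all arrays, against 0.327% of probe sets called lower, or without the 6, against 4.11%; the differences ran from -1.65 (HIS2) to -0.23 (HIS3) and from -1.74 (HIS7) to -0.33 (HIS6). Without sucrose none was called in either fit, against 0.0182 and 0.0364% of probe sets called lower, with a median of -0.66 over the 7 genes or -0.55 without the 6. With all other arrays kept, this median was -1.74 without the first LS array at 0% and 0.01 without the second.

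**Figure D2:**
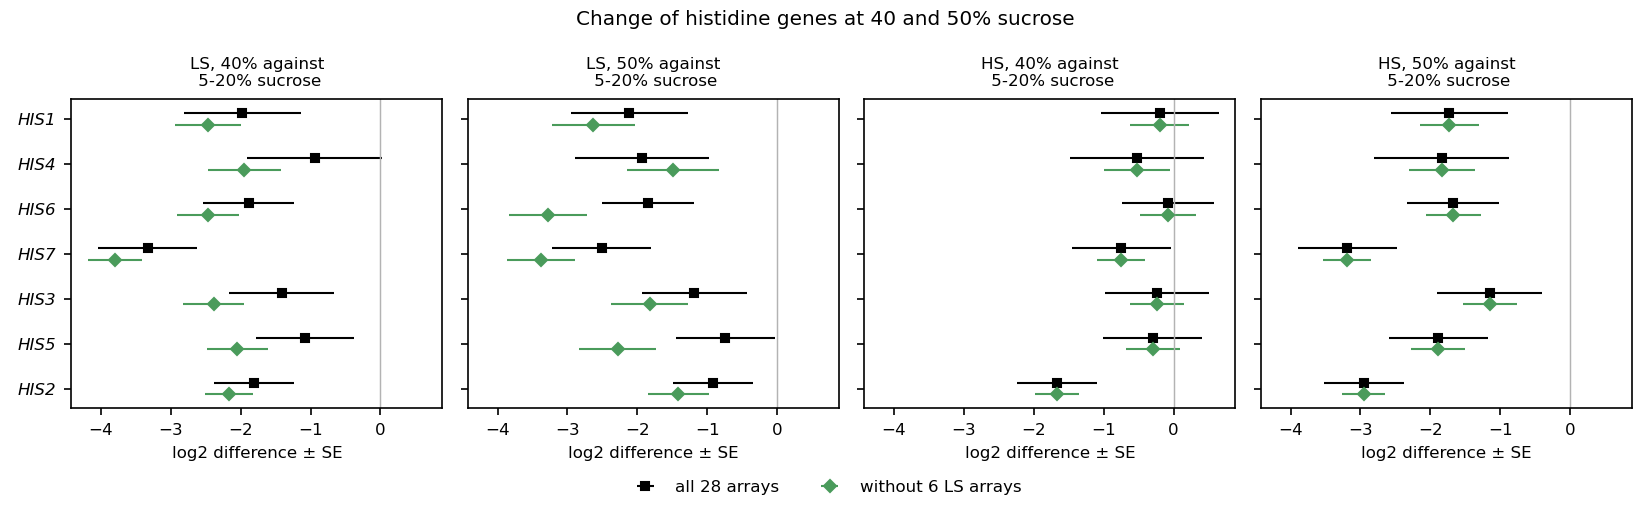
Log2 difference ± SE of the 7 histidine genes at 40 and at 50% sucrose against 5 to 20%, by yeast, with squares for the fit of all 28 arrays and diamonds for the fit without 6 LS arrays. HIS7 has the largest fall in both yeasts at 50% and in LS at 40%, while 6 genes lie between -0.75 and -0.08 in HS at 40%, where HIS2 stands at -1.67.

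Set against the whole array, the pathway lay in the lower part of the distribution at high sucrose. The median of the 7 genes was below that of most probe sets: 10.5% of probe sets had a lower difference in HS at 50%, 13.5% in LS at 40% and 14.8% in LS at 50%. In HS at 40% it was 39.1%, a position that rests on 2 disagreeing arrays, since the median of the 7 was -1.10 or 0.33 with 1 of them left out. These shares describe the 7 genes and were not tested.

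**Figure D3:**
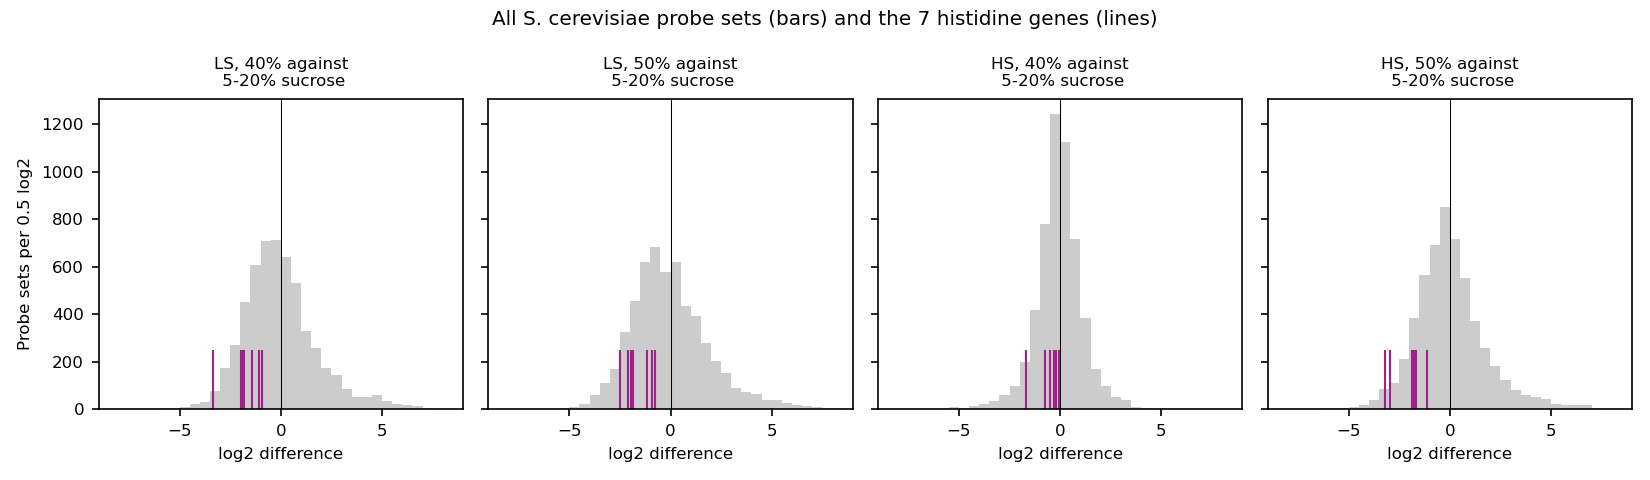
Number of S. cerevisiae probe sets (bars, 0.5 wide on the log2 scale) by log2 difference at 40 and 50% sucrose against 5 to 20% in each yeast, with vertical lines at the 7 histidine genes, whose height carries no value. The lines lie left of 0 in all 4 panels and nearest to 0 in HS at 40%.

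The yeasts were compared directly through the difference of their responses, HS minus LS. At 40% sucrose all 7 differences were above 0, from 0.15 (HIS2) to 2.59 (HIS7), with none called in the fit of all arrays (adjusted p = 0.297 to 0.966), against 0.109% of probe sets called higher. When the 6 arrays were left out 5 of 7 were called, against 14.7% of all probe sets. HIS7 differed by 3.05 ± 0.52 (adjusted p = 0.00281), HIS6 by 2.39 ± 0.59 (adjusted p = 0.0136), HIS1 by 2.27 ± 0.63 (adjusted p = 0.0214), HIS3 by 2.15 ± 0.58 (adjusted p = 0.0192) and HIS5 by 1.75 ± 0.58 (adjusted p = 0.0429). In each of these the LS genes were the lower relative to their own low sucrose level. HIS4 (1.43, adjusted p = 0.148) and HIS2 (0.50, adjusted p = 0.45) did not pass. The difference at 40% therefore rests on which arrays enter, and in HS on 2 arrays that disagreed.

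At 50% sucrose the HS minus LS differences ran from -2.04 (HIS2) to 0.39 (HIS1), with a median of 0.03, and none was called in either fit, against 0.491% of probe sets called in either direction, or 12.7% without the 6. At 30% and without sucrose none was called either, against 0.00 and 0.655% of probe sets, or 0.109 and 1.38% without the 6. Averaged over the 7 concentrations, HS and LS differed in the 7 genes by -0.03 (HIS7) to 0.73 (HIS4) with none called (adjusted p = 0.136 to 0.958), where 15.4% of all probe sets were called. In the fit without the 6 the range was -0.31 to 0.36, again with none called, against 28.9%.

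Genes that feed the pathway or share its controls were read in the same comparisons. PRPP synthetase (PRS1 to PRS5) supplies the starting sugar phosphate. In LS at 40% 2 of its 5 genes were called lower, PRS4 at -2.40 ± 0.81 (adjusted p = 0.0463) and PRS1 at -1.84 ± 0.63 (adjusted p = 0.0468), and the list had a median of -1.84. In LS at 50% PRS1 was the 1 call (-1.85 ± 0.63, adjusted p = 0.0398), and in HS at 50% none of the 5 was called and the median was -1.01. Of all probe sets 8.17, 11.1 and 7.06% were called lower in LS at 40%, LS at 50% and HS at 50%. With the 6 arrays left out 5 were called lower in LS at 40%, 3 in LS at 50% and 2 in HS at 50%, against 31.9, 26.8 and 25.9% of all probe sets. Purine synthesis, to which the HIS7 reaction returns an intermediate, had 10 of 11 listed genes on the array. Its medians were -1.16 in LS at 40%, -1.29 in LS at 50% and -1.58 in HS at 50%. Called lower were 0, 1 and 0, against 8.17, 11.1 and 7.06% of all probe sets. The call was ADE4, which catalyses the first step of purine synthesis from PRPP (-2.45 ± 0.86, adjusted p = 0.0476). Leaving out the 6 arrays, 7 of 10 purine genes were called lower in LS at 40% and 7 in HS at 50%, against 31.9 and 25.9% of all probe sets. In LS at 50%, where that fit holds 1 LS array, the purine list had a median of -1.40, against -0.17 for all probe sets.

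Genes of other amino acid pathways, a part of which is under the same general control, were read as a further list. Of 40 measured genes of arginine, lysine, branched-chain, aromatic, serine and threonine synthesis, 8 were called lower in LS at 40%, 11 in LS at 50% and 9 in HS at 50%, and none higher, against 8.17, 11.1 and 7.06% of all probe sets called lower. The highest member of the list was at 1.38 in LS at 40%, -0.31 in LS at 50% and 0.22 in HS at 50%. The medians were -1.69, -1.56 and -1.69, beside -1.81, -1.84 and -1.84 for the histidine genes. LYS9, which encodes saccharopine dehydrogenase, and LYS2, the aminoadipate reductase gene, had the largest falls in LS at 40% (-3.00 ± 0.71 and -2.84 ± 0.58) and also in HS at 50% (-3.56 ± 0.71 and -3.27 ± 0.58). TRP4 and TRP2 led in LS at 50%, at -3.93 ± 0.93 and -3.73 ± 1.18. In the fit without the 6, 35, 22 and 30 of the 40 were called lower, against 31.9, 26.8 and 25.9% of all probe sets. In HS at 40% none of the 40 was called, with a median of -0.51, against 1.55% of all probe sets called lower. Without the 6, 3 were called lower there, against 12.1%. That lysine genes fell in LS at 40% was known from earlier results of these data, so their direction is not independent evidence.

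The 7 regulators had medians of -0.64 in LS at 40%, -1.19 in LS at 50% and -0.66 in HS at 50%, and no test compared them with the pathway. GCN4 had ratios of 1.10 and 0.919 in HS at 50% and of 1.63 and 0.930 in LS at 40%, within the low sucrose range of each yeast. Its log2 differences there were -0.28 (adjusted p = 0.867) and -0.01 (adjusted p = 0.997). In LS at 50% its arrays disagreed, at 2.96 and 0.467, 1 above and 1 below the LS low sucrose range of 0.720 to 2.43. Gcn4 protein, known to be set mainly by translation, was not measured. BAS1 rose 3.19-fold in HS at 50% (1.67 ± 0.50, adjusted p = 0.0301), with ratios of 2.455 and 1.47. It had a difference of -0.13 in LS at 40% (adjusted p = 0.888). In LS at 50% BAS1 went the other way, with ratios of 0.619 and 0.549, below its lowest LS low sucrose ratio of 0.717. No regulator was called in the HS minus LS difference at 50% with all arrays. The highest and lowest of the 7 were BAS1 at 2.87 and PHO2 at -1.76. Without the 6 arrays, with 1 LS array left at 50%, they were BAS1 at 2.77 and PHO2 at -1.46. PHO2 had differences of 1.20 in LS at 40% (adjusted p = 0.194) and -0.43 in HS at 50% (adjusted p = 0.709). GCN2, the kinase that senses uncharged tRNA, had -0.70 and -0.66 in these comparisons (adjusted p = 0.424 and 0.481). GCN20, which acts with GCN1 to activate that kinase, fell in LS at 50% (-3.30 ± 0.93, adjusted p = 0.0148), while GCN1 had -2.58 there and -2.97 in HS at 50% (adjusted p = 0.148 and 0.123), and GCN3, a subunit of translation factor eIF2B, had -1.53 and -0.99 (adjusted p = 0.276 and 0.569). Of 7 regulators 0, 1 and 0 were called lower in LS at 40%, LS at 50% and HS at 50%. The shares of all probe sets called lower were 8.17, 11.1 and 7.06%. Called higher were 0, 0 and 1 regulators. Of 5498 probe sets 984, 1217 and 828 were called in either direction, of which 449, 610 and 388 were lower and the rest higher. With the 6 arrays left out 4 were called lower in LS at 40% and 3 in HS at 50%, against 31.9 and 25.9%. In each of these 1 was called higher, where 2968 and 2603 probe sets were called in either direction. Of those probe sets 1756 and 1426 were lower and the rest higher.

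HTS1, which encodes the enzyme that charges tRNA with histidine, had ratios of 0.233 and 0.181 in LS at 50% and fell (-2.35 ± 0.79, adjusted p = 0.0376). Of all probe sets 11.1% were called lower there. In HS at 50% HTS1 read 0.919 and 0.389, with a difference of -1.17 (adjusted p = 0.361). HIP1, the histidine permease gene, had -0.91 in LS at 50% and also -0.91 in HS at 50% (adjusted p = 0.494 and 0.572). In LS at 40% neither gene was called with all arrays, and HTS1 had -1.28. Without the 6 arrays both were called lower in LS at 40%, against 31.9% of all probe sets. HTS1 had -2.32 there and HIP1 -1.91 (adjusted p = 0.00234 for HIP1). In LS at 50%, with 1 LS array, that fit gave -3.21 for HTS1 and -1.94 for HIP1. In HS at 50% it called 1 of the 2 lower, against 25.9%. In the HS minus LS difference at 40% it called both higher, against 14.7%.

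**Figure D4:**
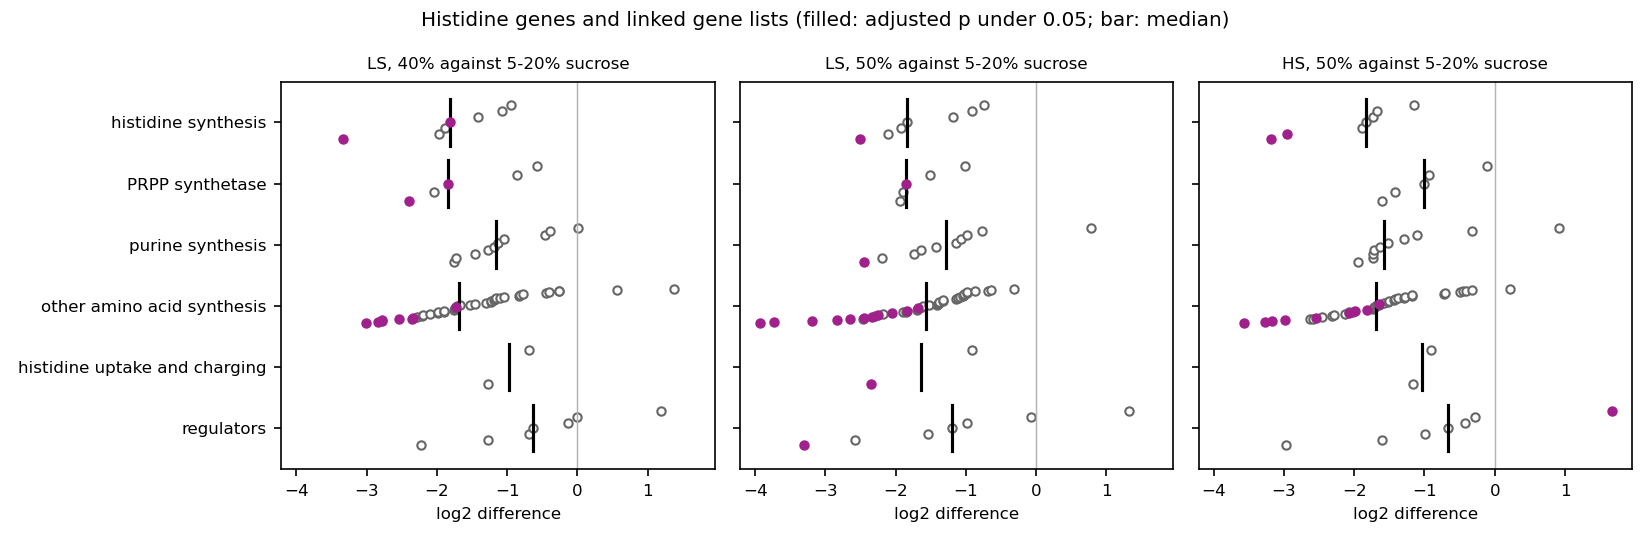
Log2 difference (horizontal axis) of each gene in the histidine pathway and 5 linked lists, for LS at 40%, LS at 50% and HS at 50% against 5 to 20% sucrose in the fit of all arrays, filled where the adjusted p is under 0.05, with a bar at the median of each list. The median lies left of 0 in every list. The regulators spread to both sides, as do purine synthesis and, except in LS at 50%, other amino acid synthesis. BAS1 is the filled point on the right in HS.

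Among themselves the histidine genes were alike across the 14 groups, with HIS2 the least so. The Pearson correlation of each gene with the mean of the other 6, over the 14 group means of log2 ratios, was 0.813 to 0.902 for 6 genes and 0.605 for HIS2. Without the 6 arrays it was 0.827 for HIS2 and 0.838 to 0.977 for the rest, and over the 7 HS groups it was 0.780 (HIS6) to 0.994 (HIS3). Genes on the same arrays share each array's scaling, so these correlations are a description.

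Outside the pathway, the gene whose group means were most like the mean of the 7 was CHS3, a chitin synthase gene, at a correlation of 0.990 over the 14 groups. It was followed by SEC63 (0.972), a component of protein import into the endoplasmic reticulum, RKI1 (0.958), the ribose-5-phosphate isomerase gene, DUT1 (0.955), which encodes a dUTPase, and ARG3 (0.953), of arginine synthesis. Without the 6 arrays their correlations were 0.989, 0.968, 0.979, 0.970 and 0.889, and their ranks among all probe sets 3, 51, 15, 41 and 551.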

How the data were processed

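Per the series design text, the authors used GeneSpring 7.0 to normalize every chip to its positive genes other than those of S. pombe, followed by a normalization per gene. The deposited values are ratios on a linear scale, from 0.01 to 532.3, with a median within 0.01 of 1 for 97.7% of S. cerevisiae probe sets. The method that summarised probes is not given. Genes were named from the platform annotation. Of 10928 probe sets 7244 had 1 symbol, 1 had several and 3683 had none, and 12 symbols were updated.

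Log2 ratios of the 5498 S. cerevisiae probe sets were fitted with 1 mean for each of the 14 groups by limma 3.58.1 (R 4.3.3; 14 residual and 5.41 prior degrees of freedom), without further scaling. Tests were 2-sided, adjusted by Benjamini-Hochberg over all 5498 within each comparison and called at an adjusted p under 0.05. Low sucrose is the mean of the 5, 10 and 20% groups. All 7 members are named, all regulators, HIP1 and HTS1, and of other lists the 2 called genes with the largest change. Of listed genes, 1 of purine and 3 of amino acid synthesis did not match a symbol. The members, lists, reference and the set without 6 arrays were chosen with earlier results of these data known. The fit was run on simulated data with known changes and independent noise of 1 spread per gene. That run did not hold the wider spread of the 6 LS arrays, so it cannot check the calls under it. The number of arrays limits the precision. Alternatives were another reference, array scaling, offset, filter, moderation, array weights, replicate block, sets of arrays and each array left out.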

Additional observations from a re-analysis of the deposited data

How the results depend on the processing

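The counts below are of histidine genes called, of 7, and several became 0. In LS at 40% the count of 2 became 1 with 5% sucrose alone as the reference or with median centring, 4 with array weights, 0 with only the compared groups or LS fitted alone, and 7 without the 6 LS arrays or with LS fitted alone without them. In LS at 50% the count of 1 became 0 with 5% alone, array weights, only the compared groups or LS alone. It became 2 with the filter on the median ratio and 3 with the replicate block. Fits without the 6 arrays hold 1 LS array at 50% and are not counted there. In HS at 50% the count of 2 became 6 after quantile normalization or with array weights, and 7 with only the compared groups, HS alone or without the 6. In HS without sucrose the count of 0 became 2 after quantile normalization, 3 with array weights, HS alone or without the 6, and 4 with only the compared groups; in HS at 40% it became 1 in each of these. The HS minus LS difference at 40% had 1 call with array weights and 5 without the 6 arrays, and quantile normalization gave 1 call each at 50% and for the mean of HS against LS. Fits of each yeast alone were added after seeing the data. The cause of these changes was not tested. With single arrays left out the HS minus LS difference of HIS5 at 40% ran from -0.017 to 1.58, the former without the first HS array at 40%, and the count was 0 to 3 in LS at 40% and at 50%, 0 to 2 in HS at 50%, and 0 to 1 in LS without sucrose and for the mean of HS against LS. Over all 5498 probe sets, in either direction, 984 were called in LS at 40%, 198 with only the compared groups and 2968 without the 6 arrays. Array weights gave 1424 there. LS at 50% had 1217, and 1436 with the replicate block. In HS at 50% the main fit called 828. Quantile normalization, array weights, only the compared groups, HS alone and leaving out the 6 gave 1475, 1894, 2466, 2535 and 2603. In that order HS without sucrose had 1029, 2057, 2152, 1771 and 1877, against 459 in the main fit. HS at 40% had 829, 803, 1170, 1091 and 1181, against 133. Array weights gave both arrays of a group the same weight, so they could not set the 6 arrays apart from their partners. Deviations of same-numbered arrays correlated above 0.1 in 15 of 21 pairs of LS groups, 18 of 21 of HS groups and 9 of 49 between the yeasts. The medians of these correlations were 0.392, 0.288 and -0.093. The labels name no shared source, and the main fit did not take the numbers as pairs. The replicate block was 1 term shared by both yeasts, so it cannot fit a replicate effect that differs between them. The replicate block gave 3, 3 and 2 calls in LS at 40%, LS at 50% and HS at 50%, adding HIS6 at 40% (adjusted p = 0.0425) and HIS6 and HIS1 at 50% (adjusted p = 0.0408 and 0.0394) in LS. The alternative probe set was not run, since each gene had 1. Signal over background was not analysed here.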

Other observations

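The genes next to the 7 histidine genes on the chromosomes of the reference strain S288C (RefSeq R64) were read after the members' values were seen. Of all probe sets 8.17, 11.1 and 7.06% were called lower in LS at 40%, LS at 50% and HS at 50%. Without the 6 arrays the shares were 31.9% in LS at 40% and 25.9% in HS at 50%. In LS at 50% that fit holds 1 LS array, on which its values for the neighbours rest. HIS1 lies beside GIP2, which encodes a regulatory subunit of the phosphatase Glc7. The differences of HIS1 in LS at 40%, LS at 50% and HS at 50%, -1.98, -2.11 and -1.73, did not pass the test with all arrays. Without the 6 HIS1 was called lower in LS at 40% and HS at 50% (adjusted p = 0.000935 and 0.00515), and had -2.63 in LS at 50%. GIP2 rose by 4.11 ± 0.85 on the log2 scale in LS at 40% (adjusted p = 0.00246), by 4.40 ± 0.85 in LS at 50% (adjusted p = 0.00128) and by 4.12 ± 0.85 in HS at 50% (adjusted p = 0.00273). FCY2, on the other side of HIS1, had differences of -1.60, -0.82 and -0.07 (adjusted p = 0.191, 0.497 and 0.975). HIS7 lies beside ARO4, a gene of aromatic amino acid synthesis, which had -1.99, -1.68 and -2.31 (adjusted p = 0.131, 0.181 and 0.0873). Without the 6 arrays ARO4 was called lower in LS at 40% and in HS at 50%, and had -2.67 in LS at 50%. ENP1, on the other side of HIS7, had -1.38, -1.68 and -0.95 with none called, and was called lower without the 6 in LS at 40% (-2.39, adjusted p = 0.00178) and 50% (-2.73, adjusted p = 0.00389).

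HIS3 lies between MRM1 and the RNA helicase gene DED1. In HS at 50% MRM1 had a difference of -0.47 (adjusted p = 0.802) and DED1 of -1.90 (adjusted p = 0.545), the latter with an SE of 1.80. Neither was called in LS with all arrays; without the 6 both were called lower there, MRM1 at -1.63 and -2.27 (adjusted p = 0.00164 and 0.00104) and DED1 at -3.37 and -3.93 (adjusted p = 0.00614 and 0.0106) at 40 and 50%. HIS5, HIS6 and HIS4 lie beside genes with differences between -0.41 and -0.02 in HS at 50%, none called: PRM5, NUP159, RPB3, FAF1, RRP7 and BIK1. In LS at 50% FAF1 (-1.89, adjusted p = 0.0443) and BIK1 (-2.54, adjusted p = 0.0499) were called lower, and without the 6 arrays FAF1 had -2.23 (adjusted p = 0.00656) and BIK1 0.39 (adjusted p = 0.664). LSB3, beside HIS2, had 1.90, 1.41 and -0.77 in LS at 40%, LS at 50% and HS at 50% with none called, and was called higher in LS at 50% without the 6 (1.54, adjusted p = 0.0488). Without the 6, RPB3 was also called lower in LS at 40% and 50% (-1.04 and -1.21) and NUP159 in LS at 40% (-0.82). Whether a histidine gene differs from its neighbour was not tested.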
